A study of Mus musculus with 4 samples.

Results

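Of the 27027 entries of the count table, 10 are described here: Fos, Fosb, Fosl1, Fosl2, Jun, Junb, Jund, Atf3, Maff and Klf6, the genes of AP-1 and of related immediate early transcription factors. They were chosen by gene symbol, and each symbol had 1 entry. Hepatic RNA of male C57BL/6J mice, 9 to 12 weeks old and fasted for 10 h before injection, was analysed 24 h or 48 h after an intraperitoneal injection. Control mice received vehicle (0.9% NaCl), and the other mice received acetaminophen (APAP) at 300 mg/kg, a dose that damages hepatocytes. RNA of 6 control mice or 7 APAP mice per time point was pooled in equal shares, so each of the 4 groups was 1 library and the spread between mice was not measured.

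AP-1 is a pair of proteins that bind DNA through a basic region and hold together by a leucine zipper. Jun proteins can pair with each other or with Fos proteins, whereas Fos proteins need a Jun partner. Atf3 and Maff carry the same kind of zipper, and Klf6 is a zinc finger factor. Many of these genes are immediate early genes: their mRNA appears within minutes of stress, growth factors or cytokines without new protein synthesis, and is usually short-lived. In liver, c-Jun is known for its part in hepatocyte survival and regeneration.

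MACE sequences a fragment near the 3′ end of each polyadenylated mRNA, so a read stands for about 1 transcript whatever its length. The libraries held 4859661 to 5698778 reads on genes. Reads are given as counted, and folds were computed from reads divided by size factors of 0.880 to 1.17. The range after a fold is its 95% exact interval, which covers counting error only. With 1 library per group no p-value can be given, and a fold compares 2 libraries, not 2 treatments. Where a library had 0 reads, 3 reads took their place and the fold is a bound. To count genes past a threshold, any count of 3 or fewer was set to 3. The 8 hepatocyte marker genes in the table, Alb among them, were abundant in every library, with 394357.8 to 437854.6 normalized reads in sum.

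At 24 h after APAP, 5 of the 10 genes (Fos, Fosl1, Atf3, Maff and Klf6) were at least 5-fold above the control pool, against 0.795% of all entries with a fold (128 of 16095). At least 2-fold, with an interval above 1, were 7 of 10, with Jun and Junb added, against 4.85% of entries. At 48 h none of the 9 genes with a fold reached 5-fold, against 0.474% of entries (76 of 16018), and 6 of 9 (Fos, Fosl1, Junb, Atf3, Maff and Klf6) were at least 2-fold higher with an interval above 1, against 5% of entries. None was 5-fold lower at 24 h (0.634% of entries) or at 48 h (0.68%). For lists of 9 or 10 genes, counts of none are near these shares, and so is the count of none past 5-fold at 48 h. The median log2 fold of the members was 2.47 at 24 h, with a range of 0.31 to 4.06, and 1.22 at 48 h, while the median over all entries was -0.0015 and 0.02. RNA of whole liver was sequenced, so fewer cells of a type and less RNA per cell cannot be told apart.

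**Figure D1:**
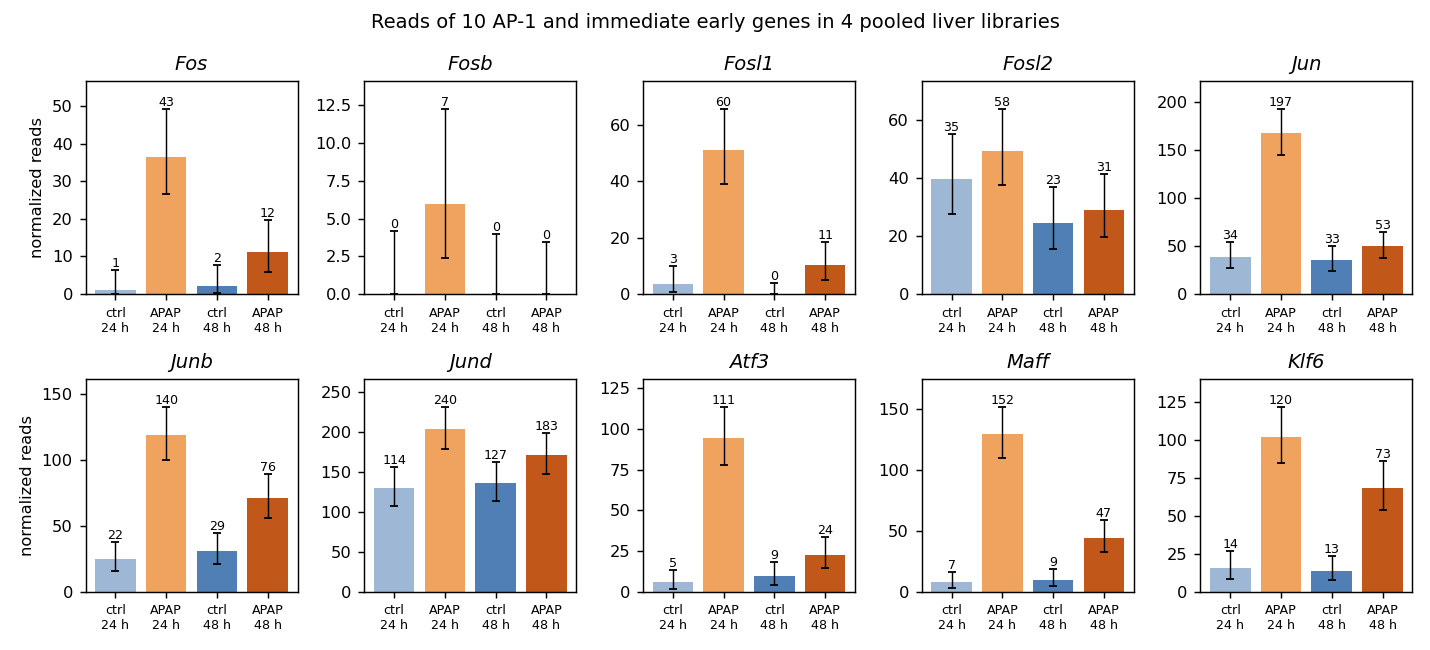
Normalized reads (reads divided by the size factor, vertical axes on separate scales) of the 10 genes in the 4 pooled libraries; bars are the single value of each pool, error bars are 95% exact Poisson intervals for counting error, and the number above a bar is the reads counted. All 10 genes are highest in the APAP pool at 24 h, and Fosl2 and Jund differ least between pools.

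The Fos proteins differ in the strength of the activation domain that they bring to AP-1. Fos, the founding member (ENSMUSG00000021250, chr12:85473890-85477273, plus strand, GRCm38), had 1 read at 24 h and 2 at 48 h under vehicle, and 43 and 12 after APAP. It was nearly absent from both controls and was seen mostly in APAP at 24 h. Its fold was 32.2 (5.48-1302) at 24 h and 5.25 (1.17-48.3) at 48 h. These rest on 1 and 2 control reads. With those counts set to 3, the folds were 10.7 and 3.50, so the call at 48 h turns on the floor.

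Fosl1 encodes Fra-1, which lacks the strong activation domain of Fos (ENSMUSG00000024912, chr19:5447547-5455946, plus strand). It had 3 and 0 vehicle reads at 24 h and 48 h but 60 and 11 reads in mice given APAP, the most reads of any Fos gene in the APAP pool at 24 h. Its fold was 15.0 (4.89-74.7) at 24 h and at least 3.21 at 48 h, where the control had no read. Its 3′ UTR (chr19:5455306-5455946) is overlapped on the other strand by Ccdc85b, which gave 13 reads at 24 h and 9 at 48 h without APAP, and 7 and 12 with it. The sources used here do not say whether reads were counted by strand, so the assignment of Fosl1 reads is uncertain. No other member had a gene over the 3′ UTR of its main transcript.

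Fosb (ENSMUSG00000003545, chr7:19302696-19310051, minus strand) was counted in only 1 library, with 7 reads 24 h after APAP and 0 in the other 3 libraries. That made it at least 1.75-fold higher than the control, and for 48 h it has no fold. At this depth its level in the other pools was not detectable.

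Fosl2 encodes Fra-2 (ENSMUSG00000029135, chr5:32135801-32157842, plus strand) and was the Fos gene with the most reads in 3 of the 4 pools, Fosl1 having more in APAP at 24 h. It had 35 and 23 reads under vehicle (24 h and 48 h) against 58 and 31 under APAP. The pools overlapped within counting error at each time, with folds of 1.24 (0.802-1.95) and 1.18 (0.665-2.12). The intervals leave out a change of 2-fold at 24 h but not at 48 h. Against the control pool of the other time, the fold was 2.00 at 24 h and 0.731 at 48 h.

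Summed over the 4 Fos genes, 39 and 25 reads were counted under vehicle (24 h and 48 h) and 168 and 54 under APAP, and the folds were 3.23 (2.27-4.70) and 1.89 (1.16-3.17). The makeup of this sum differed between pools. Fosl2 was 89.7% of the Fos family reads in the control pool at 24 h (exact interval 75.8-97.1%) and 92% at 48 h (74.0-99.0%). In the APAP pools it was 34.5% (27.4-42.2%) at 24 h and 57.4% (43.2-70.8%) at 48 h. At 24 h after APAP, Fosl1 gave 35.7% and Fos 25.6% of the family reads, where in the control pool of that time they gave 7.69% and 2.56%. In the control pool at 48 h Fosl1 gave 0 of 25 reads, which allows a share of up to 13.7% (exact interval).

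**Figure D2:**
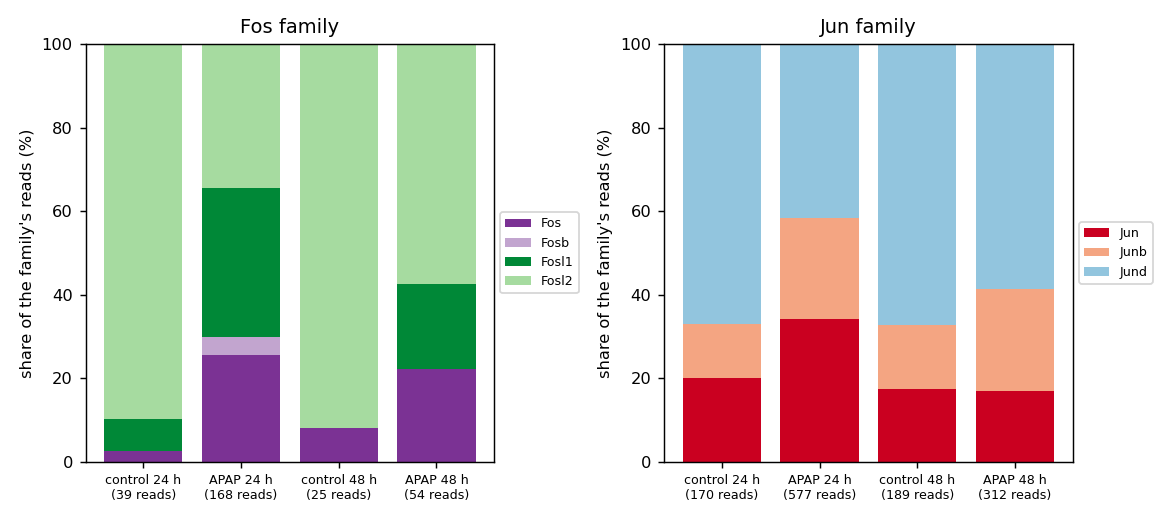
Share of the family's reads (%) given by each Fos gene (left) and each Jun gene (right) in the 4 pooled libraries, with the family's total reads below each bar. Fosl2 and Jund fill most of the control bars (89.7% and 67.1% at 24 h) and less than those shares of the bars after APAP.

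The Jun proteins are the obligate partners of the Fos proteins. Jun, which encodes c-Jun, the substrate of the JNK kinases (ENSMUSG00000052684, chr4:95049034-95052222, minus strand, 1 exon), had 34 and 33 vehicle reads at 24 h and 48 h but 197 and 53 reads in mice given APAP. The controls were alike, and the APAP pool at 24 h stood well above them. The fold was 4.34 (3.0-6.45) at 24 h and 1.40 (0.893-2.24) at 48 h, so at 48 h the APAP and control pools differed by no more than counting error. Its antisense neighbour Junos, which overlaps Jun outside the 3′ UTR, had 4 to 9 reads per library.

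Junb, a weaker activator that can hold back c-Jun (ENSMUSG00000052837, chr8:84974484-84978718, minus strand), gave 22 reads at 24 h and 29 at 48 h without APAP, and 140 and 76 with it. It was above both controls at both times, with a fold of 4.77 (3.03-7.85) at 24 h and 2.29 (1.48-3.65) at 48 h. Both Jun and Junb were under the 5-fold threshold at 24 h with intervals that include 5. Prdx2 overlaps Junb on the other strand, outside the 3′ UTR. It had 642 and 769 reads under vehicle (24 h and 48 h) and 633 and 719 under APAP. If reads were not counted by strand, the assignment of Junb reads is uncertain too.

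Jund, the Jun gene expressed most evenly across resting tissues (ENSMUSG00000071076, chr8:70698949-70700616, plus strand, 1 exon), had 114 and 127 reads under vehicle (24 h and 48 h) against 240 and 183 under APAP. Its fold was 1.58 (1.26-1.99) at 24 h and 1.26 (0.999-1.59) at 48 h. The first interval leaves out 1 and both leave out 2.

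The Jun family together had 170 and 189 vehicle reads at 24 h and 48 h but 577 and 312 reads in mice given APAP, a fold of 2.54 (2.14-3.03) at 24 h and 1.44 (1.20-1.74) at 48 h. Jund gave 67.1% (59.5-74.1%) and 67.2% (60.0-73.8%) of these reads in the control pools. After APAP it gave 41.6% (37.5-45.7%) at 24 h and 58.7% (53.0-64.2%) at 48 h. The share of Jun was 20%, 17.5%, 34.1% and 17.0% in control 24 h, control 48 h, APAP 24 h and APAP 48 h. That of Junb was 12.9% and 15.3% in the controls and 24.3% and 24.4% after APAP. At 48 h the share of Jun lay near that of its control. The share of Junb at 48 h was higher after APAP (19.7-29.5%) than under vehicle (10.5-21.3%). These separate intervals overlapped in part, which does not show that the shares were alike, and their difference was not tested.

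Atf3, a stress-induced factor of the ATF/CREB group that mostly represses (ENSMUSG00000026628, chr1:191170296-191218039, minus strand), gave 5 reads at 24 h and 9 at 48 h without APAP, and 111 and 24 with it. Its fold was 16.6 (6.92-52.2) at 24 h and 2.33 (1.05-5.70) at 48 h. Among the 10892 genes with at least 20 reads in one of the pools at 24 h it ranked 9 from the highest fold.

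Maff, a small Maf protein that pairs with factors such as Nrf2 and has no activation domain of its own (ENSMUSG00000042622, chr15:79346621-79359076, plus strand), had 7 and 9 reads under vehicle (24 h and 48 h) against 152 and 47 under APAP. Its fold was 16.3 (7.71-41.2) at 24 h, rank 10 of the same genes, and 4.57 (2.21-10.6) at 48 h. Fosl1 followed at rank 12 and Fos, with its floor, at rank 24.

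Klf6, a factor known for its induction after liver injury (ENSMUSG00000000078, chr13:5861482-5870394, plus strand), had 14 and 13 vehicle reads at 24 h and 48 h but 120 and 73 reads in mice given APAP. Its fold was 6.42 (3.68-12.1) at 24 h and 4.91 (2.70-9.66) at 48 h, so it was the member with the highest fold at 48 h among those not set to a bound or resting on 3 or fewer control reads. At 48 h it ranked 73 and Maff 82 of 10831 genes. Scaled by library totals instead, their folds at 48 h were 5.90 and 5.49, past the threshold. The order of Klf6 and Maff at 48 h depended on the control pool. Against that of the other time their folds were 4.30 and 5.54, and against the sum of both 4.59 and 4.99.

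**Figure D3:**
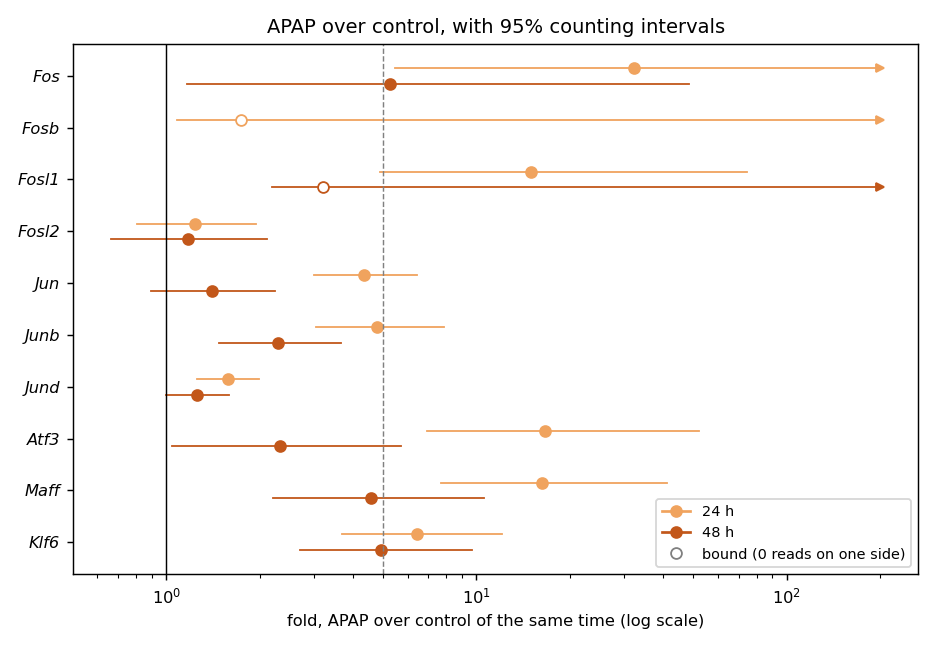
Fold of APAP over control of the same time for the 10 genes (horizontal log axis), at 24 h (light) and 48 h (dark); points are the ratio of the 2 libraries, lines the 95% exact counting intervals, arrows intervals that run off the axis, open points bounds where the control had 0 reads, and the dashed line 5-fold. Atf3 and Maff lie at 16.6 and 16.3 at 24 h, and the 8 genes with a ratio at both times all lie lower at 48 h.

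To show the sequence before the starts of genes that were high together after APAP, RefSeq promoter windows (GRCm38.p6, from 250 bases before to 50 after each start) were read. Windows were given for 9 of the 10 genes, with 11 starts in all, and Fosl1 had none. The letters searched, on both strands, were the AP-1 site TGANTCA, the cAMP-response-like element TGACGTNA and the variant TGACATCA. These were chosen after the windows had been read. Jun, Atf3, Maff and Klf6, 4 of the 9 genes with windows, held TGACGTNA or TGACATCA. By window these were 5 of 11, and 6.48% of all 32817 windows held a match. Because the letters were chosen from the member windows, these shares cannot show that matches are more frequent in the members. TGANTCA was in no member window and in 7.81% of all windows. The 120 bases before the start are shown for the 4 genes that held a match, with the match in capitals.
Jun, chr4:95052223-95052342, minus strand, match at -45: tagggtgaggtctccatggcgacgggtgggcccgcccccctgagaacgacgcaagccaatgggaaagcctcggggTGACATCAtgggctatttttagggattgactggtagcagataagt
Atf3, chr1:191183334-191183453, minus strand, match at -10: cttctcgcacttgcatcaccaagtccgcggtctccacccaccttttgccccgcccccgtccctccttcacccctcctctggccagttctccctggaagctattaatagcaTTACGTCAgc
Maff, the second start, chr15:79347400-79347519, plus strand, match at -29: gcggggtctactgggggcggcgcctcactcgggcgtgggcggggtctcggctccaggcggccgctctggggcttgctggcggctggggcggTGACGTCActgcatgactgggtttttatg
Maff, the third start, chr15:79348282-79348401, plus strand, match at -45: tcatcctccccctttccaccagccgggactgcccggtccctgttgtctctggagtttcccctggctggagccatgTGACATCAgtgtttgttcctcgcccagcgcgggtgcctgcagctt
Klf6, chr13:5861369-5861488, plus strand, match at -119: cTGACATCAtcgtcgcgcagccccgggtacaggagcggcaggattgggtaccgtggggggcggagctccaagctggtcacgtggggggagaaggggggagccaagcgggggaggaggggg
Positions are those of the first capital, counted back from the RefSeq start, and TTACGTCA is TGACGTNA read on the other strand. In the windows of Fos, Fosb, Fosl2, Junb and Jund none of the searched letters was found, and of these Fos was past 5-fold at 24 h and Junb, at 4.77-fold, was above Jun, at 4.34-fold. The RefSeq starts of Fosl2 and Jund lie 671 and 1210 bases from the nearest GENCODE start of a main transcript, and the third Maff start 338 bases. The windows at these RefSeq starts therefore do not cover those GENCODE starts. A match is a description of these letters and not a measured binding site, and no binding was measured here.

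Within the APAP pools, 6 of the 10 genes (Fos, Fosb, Fosl1, Jun, Atf3 and Maff) were at least 2-fold lower at 48 h than at 24 h with an interval below 1, against 2.81% of all entries (460 of 16358). Fosl1 was 4.96-fold lower (2.58-10.5), Atf3 4.20-fold (2.68-6.83) and Jun 3.38-fold (2.48-4.66). Fos was 3.26-fold (1.69-6.78) and Maff 2.94-fold lower (2.11-4.17), and Fosb, from 7 reads to 0, was at least 2.12-fold lower.

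The 4 other genes were lower by less. Fosl2 was 1.70-fold lower (1.08-2.72), Junb 1.67-fold (1.26-2.24) and Klf6 1.49-fold (1.11-2.03). Jund, at 1.19-fold (0.979-1.45), did not differ beyond counting error.

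The control pools gave the background. None of the 7 genes with a fold between the control pools at 48 h and 24 h differed by 2-fold with an interval that left out 1, against 3.83% of all entries (592 of 15459). For a list of 7 genes, a count of none is near this share. Fos, Fosb and Fosl1, with 3 or fewer reads in both control pools, had no fold here. The ratios ran from 0.620 (0.350-1.08) for Fosl2 to 1.70 (0.511-6.45) for Atf3. For Fosl2, the decrease in the APAP pools, a ratio of 0.588 (0.368-0.925), was close in size to that between the controls.

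The fold over control was then compared between the times from all 4 libraries. The fold at 48 h divided by that at 24 h could be computed for 8 of the 10 genes, not for Fosb and Fosl1. It was below 1 beyond counting error for 4 of the 8, against 7.84% of all entries (1392 of 17761). It was 0.140 (0.0344-0.524) for Atf3, 0.281 (0.0846-0.906) for Maff, 0.324 (0.177-0.595) for Jun and 0.481 (0.246-0.936) for Junb. For Klf6 the ratio was 0.765 (0.314-1.88), for Jund 0.799 (0.574-1.11) and for Fosl2 0.949, so their folds at the 2 times could not be told apart at this depth. For Fos it was 0.163 with an interval from 0.0027 to 3.53, too wide to give a direction.

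Genes with the most similar course over the 4 libraries were sought for the member with the most reads of each group, by the root mean square difference of centred log2 levels over 11353 other genes that reached 20 reads in any library. For Fosl2 they were Mapk8 (0.0318), which encodes JNK1, Negr1 (0.0325) and 5730480H06Rik (0.0391). For Jund they were Gm16066 (0.0162), Mafg (0.0173), a small Maf gene, and Hist3h2a (0.0188). For Klf6 they were P2rx7 (0.116), an ATP-gated channel, Tnfrsf12a (0.121), the TWEAK receptor, and Ier3 (0.177). These likenesses rest on 4 libraries each. Mapk8 had 30, 19, 48 and 27 reads in control 24 h, control 48 h, APAP 24 h and APAP 48 h. At such counts, counting error is larger than a difference of 0.0318, so the order of these genes is not secure. A link between the genes was not tested.

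Other genes of the pathway were taken from 4 lists. None of the 21 kinases and factors upstream of AP-1 passed 5-fold, or 2-fold with its interval, in either direction at either time. Of all entries, 0.795% at 24 h and 0.474% at 48 h were 5-fold higher, and 4.85% and 5% were 2-fold higher with an interval above 1. For a list of 21 genes, a count of none is near these shares. The 2 with the most reads were Map2k2, which gave 708 reads at 24 h and 796 at 48 h without APAP, and 1069 and 942 with it, and Mapk14, which encodes p38α, with 240, 229, 290 and 276. Their folds were 1.13 and 0.905 at 24 h and 1.04 and 1.05 at 48 h. Kinase activity was not measured here.

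Of 19 other AP-1 partners and related leucine zipper factors, 2 were at least 5-fold higher at 24 h and none at 48 h. Of all entries, 0.795% and 0.474% were. The median log2 fold of these factors was 0.30 and 0.16. Ddit3, which encodes the stress factor CHOP, had 21 and 17 reads under vehicle (24 h and 48 h) against 162 and 37 under APAP, a fold of 5.78 (3.66-9.59) at 24 h and 1.90 (1.05-3.60) at 48 h. Cebpd, a C/EBP factor of the acute phase, had 11 and 21 control reads and 141 and 73 after APAP, a fold of 9.60 (5.21-19.7) and 3.04 (1.85-5.20). The 2 with the most reads, Atf5 and Atf2, had folds of 1.13 and 1.01 at 24 h and 0.923 and 0.933 at 48 h.

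Of 25 other immediate early genes, 24 were in the table, of which 5 passed 5-fold upwards at 24 h and 1 at 48 h. The share of all entries was 0.795% and 0.474%. At 24 h these were Egr1 (5.68), Csrnp1 (6.88), Cyr61 (5.54), Myc (6.74) and Ier3 (6.18), of which Egr1 and Myc encode transcription factors and Cyr61 a matrix protein. Myc and Ier3 each had only 4 control reads at that time. Ier3, with 4 and 3 control reads and 33 and 27 after APAP, was the gene past 5-fold at 48 h (7.87, 2.42-40.5). Egr1 was 2.01-fold, Cyr61 2.49-fold and Csrnp1 3.40-fold lower at 48 h than at 24 h in the APAP pools, as were 6 of the members. Mcl1 and Zfp36l1, with the most reads, had folds of 1.47 and 0.864 at 24 h and 1.09 and 1.28 at 48 h.

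Of 24 textbook AP-1 target genes, 23 were in the table, of which 6 passed 5-fold upwards at 24 h and 6 at 48 h. Among all entries 0.795% and 0.474% did. At both times these were Mmp12, Plaur, Timp1, Ccl2 and Sprr1a. The control pools held only 1 to 4 reads each of Mmp12, Plaur, Timp1 and Ccl2, so these calls rest on few reads and depend on the floor. S100a6 passed at 48 h alone. Cd44 and Mmp14, the 2 with the most reads, had folds of 0.978 and 1.87 at 24 h and 1.04 and 1.05 at 48 h. No gene of the 4 lists was at least 5-fold lower at either time, against 0.634% of all entries at 24 h and 0.68% at 48 h.

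The targets did not share 1 course while the AP-1 genes were lower at 48 h. Sprr1a, an epithelial envelope protein gene, had 4 and 8 control reads and 516 and 134 after APAP, 3.50-fold lower (2.89-4.26) at 48 h than at 24 h. Timp1, an inhibitor of matrix proteases, went the other way, from 26 to 51 reads in the APAP pools, 2.16-fold higher (1.32-3.61). Likewise Ccl2, a chemokine that attracts monocytes, had 30 and 63 reads (2.31-fold, 1.47-3.70), and S100a6, a calcium-binding protein gene, 121 and 364 (3.31-fold, 2.69-4.10).

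**Figure D4:**
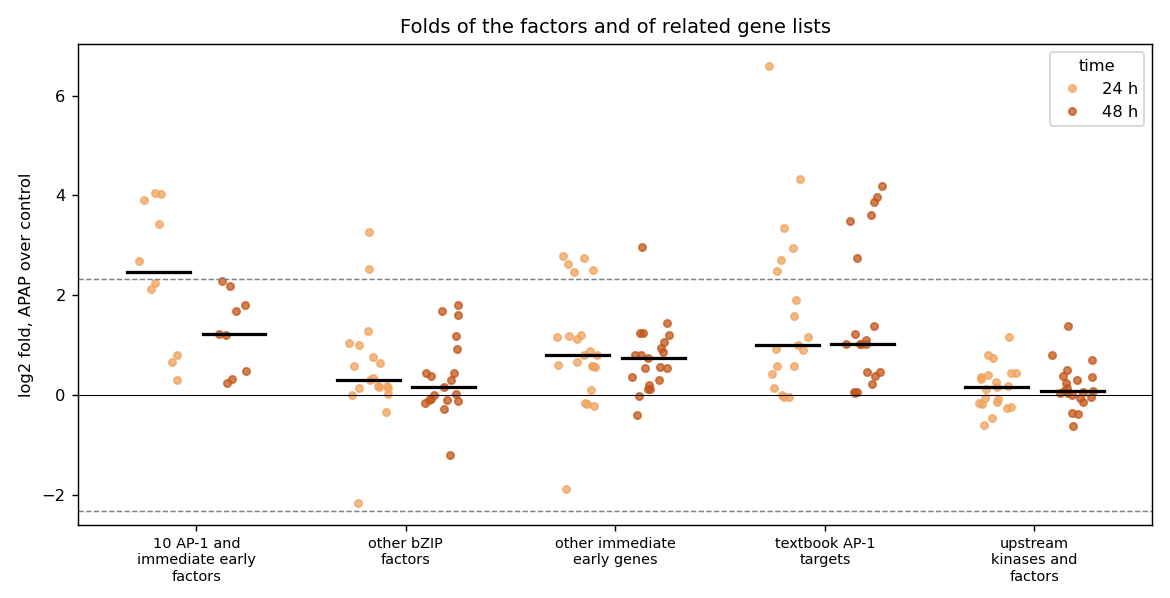
The log2 fold of APAP over control at 24 h (light) and 48 h (dark) for the 10 factors and 4 lists of related genes, each point 1 gene with any count of 3 or fewer reads set to 3; black bars are medians and dashed lines 5-fold. The 10 factors have medians of 2.47 and 1.22, the upstream kinases and factors 0.16 and 0.08.

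Some cell type markers were highest at 24 h after APAP, like the AP-1 genes, and others at 48 h. The members summed to 267.2, 262.7, 960.8 and 478.2 normalized reads in control 24 h, control 48 h, APAP 24 h and APAP 48 h. The 10 myeloid markers summed to 552.5, 601.5, 954.8 and 1619. Of these, 2 of 10 at 24 h and 7 of 10 at 48 h were at least 2-fold higher with an interval above 1. Of all entries, 4.85% and 5% were. The myeloid sum was thus highest at 48 h, where the AP-1 sum was below its level at 24 h. The myeloid markers did not share 1 course in the APAP pools. Lyz2, Cd68, Fcgr3, Tyrobp and Aif1 were higher at 48 h than at 24 h with intervals above 1. Cd14, with 5, 16, 77 and 38 reads in the same order of libraries, was 1.84-fold lower (1.23-2.79). For Csf1r, Adgre1, Itgam and Ptprc the interval included 1.

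The 5 neutrophil markers in the table summed to 18.2 and 18.2 normalized reads under vehicle (24 h and 48 h). Under APAP they summed to 213 and 160. The sum was highest at 24 h, but the markers did not share 1 course. S100a8 and S100a9, with 1 to 10 control reads, were past 5-fold at both times. From 24 h to 48 h in the APAP pools, S100a9 was 1.79-fold lower (1.20-2.72). S100a8, at 1.19-fold (0.919-1.55), did not differ beyond counting error. Cxcr2 had 1, 1, 9 and 0 reads, Retnlg 2, 5, 18 and 16, and Csf3r 2, 0, 9 and 11. Cholangiocyte markers summed to 143, 181, 398 and 307. Sox9, with 58, 69, 307 and 141 reads, and Spp1, with 52, 69, 132 and 169 and also in the list of AP-1 targets, carried this sum. Krt19, Krt7 and Epcam had 2 to 15 reads per library. Stellate cell and fibroblast markers summed to 483, 516, 603 and 1036. These did not share 1 course either. At 48 h the folds were 13.6 for Acta2, 4.50 for Col1a1, 2.07 for Col3a1, 1.90 for Pdgfrb and 1.48 for Dcn. Lrat (0.832) and Reln (0.846) had intervals that included 1. Kupffer cell markers ran from 654 to 937. At 24 h the fold of Clec4f was 0.534 (0.441-0.645) and that of Marco 3.06 (2.30-4.13). For Vsig4, Timd4 and Cd5l the interval at 24 h included 1. Endothelial markers ran from 662 to 790 and lymphocyte markers from 27.3 to 46.6, with Cd8a at 0 in all libraries. The part of these cell types in the AP-1 values was not tested.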

How the data were processed

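Hepatic RNA was pooled per group and each pool gave 1 MACE library with molecular identifiers. The authors trimmed reads with cutadapt, clipped poly(A) tails, removed duplicates, mapped to mm10 (GRCm38) and deposited the HTSeq count of reads per gene. The aligner and tool versions are not given in the sources used here. Columns of RPM values, fold changes and p-values made by the authors (DESeq2) were not used.

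Libraries were grouped by their labels. Size factors came from DESeq2 1.42.0 (median of ratios), with edgeR 4.0.16 (TMM) and library totals as alternatives, in R 4.3.3. Neither tool's test was run. Folds, exact intervals (Clopper-Pearson for folds and shares, Poisson for levels, conditional for ratios of folds, all 95%) and plots were made in Python 3.11.15 with scipy 1.17.1, and the steps were tested on simulated data. Intervals cover counting error only. A count of 3 or fewer was set to 3 for calls, and no fold was computed where both were. Positions are from GENCODE M21. Named genes were all 10 members and, per list, genes past 5-fold at either time and the 2 with the most reads. Other genes were named after their values were seen. Some genes that the rule or the lists cover are not reported here. The members and lists were chosen with earlier results of these data known.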

Additional observations from a re-analysis of the deposited data

Results flagged for a closer look

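The fold of APAP over control was lower at 48 h than at 24 h beyond counting error for 4 of the 8 genes with a ratio. By the same rule it was lower for 7.84% of all entries with a ratio (1392 of 17761). The fold over control at 48 h, divided by that at 24 h, was 0.324 for Jun (0.177-0.595), 0.481 for Junb (0.246-0.936), 0.140 for Atf3 (0.0344-0.524) and 0.281 for Maff (0.0846-0.906). The interval of the ratio covers the reads of 4 libraries and not the spread between mice. No sample could be set against others of its group, since each group was 1 library.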

How the results depend on the processing

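Without replicates, nothing here measures the spread between mice. No paired analysis was possible because each group is 1 pooled library. The depth (4859661 to 5698778 reads) leaves Fos, Fosb and Fosl1 with 0 to 3 control reads, so their folds depend on the floor. With a floor of 10 reads, 3 members (Atf3, Maff and Klf6) were 5-fold higher at 24 h, the folds of Fos and Fosl1 at 24 h were 3.22 and 4.50, and that of Fosl1 at 48 h reversed to 0.962. Under the other settings with the 5-fold threshold this count was 5 or 6, and by the 2-fold rule it was 7. At 48 h the count of 0 members became 2 with library totals (Maff and Klf6), 1 with a pseudocount of 1 (Fosl1), 1 with the floor for a count of 0 only (Fos), 1 against the other control pool (Maff), 2 against the sum of both (Fos and Fosl1) and 6 by the 2-fold rule. The setting with the floor for 0 only was chosen after seeing the data. Library totals shifted the log2 fold of all genes by 0.19 at 24 h and 0.27 at 48 h. Of 238 recomputed member values, 233 stayed within their main interval and 5 left it. This is a weak check. A floor cannot change a value whose reads all lie above it, and some intervals are wide, such as 5.48-1302 for Fos at 24 h. On the other side of 1 were 4 values: that of Fosl1 above, and, within its interval, Fosl2 at 48 h with the other control pool (0.731) and the sum of both (0.908) and its ratio of folds with library totals (1.003). The decrease from 24 h to 48 h in the APAP pools held for 5 to 6 members, and no setting gave a member that differed between the control pools. That count of none is near the share of all entries that differed between the control pools.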

Other observations

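Genes of the same families as Klf6 and Maff, named after their values were seen, did not share 1 course with them. Klf9, a factor induced by glucocorticoids, had 108 and 108 vehicle reads at 24 h and 48 h but 330 and 337 reads in mice given APAP, a fold of 2.29 (1.84-2.87) and 2.73 (2.19-3.42), with no decrease between the times. Klf10, a factor induced by TGF-β, had 85 and 38 control reads and 31 and 43 after APAP. It was 3.66-fold lower (2.40-5.71) at 24 h, but it also differed 2.37-fold (1.60-3.58) between the control pools. Klf2 had 49, 38, 58 and 63 reads in control 24 h, control 48 h, APAP 24 h and APAP 48 h, and its interval included 1 at both times.

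Of the other small Maf genes, Mafg had folds of 1.56 (1.17-2.09) at 24 h and 1.30 (0.972-1.75) at 48 h, and Mafk 1.28 (0.777-2.14) and 1.01 (0.574-1.81). Both lay below the interval of Maff at 24 h.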
